A study of Mus musculus with 6 samples.

Results

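Forkhead transcription factors share a winged helix DNA-binding domain and are named Fox with a letter for the subfamily and a number for the member. Here the family was taken as every gene of the count table whose symbol has that form, from Foxa to Foxs, except Foxl2 and Foxj1, which were left out by the rule. The members were thus chosen by symbol, but the family was taken up with the behaviour of Foxn4 in these same ovaries known, so the fold changes of members between genotypes are given as a description, without p values. The rule found 42 genes among 44788, of which 24 had enough counts to be fitted among 19423 genes. RNA had been sequenced from whole ovaries of 3 wild-type (Bnc1+/+) mice, replicates 1, 4 and 7, and 3 mice homozygous for a truncating frameshift allele of Bnc1 (Bnc1tr/tr), replicates 1, 2 and 3. All 6 mice were 8 weeks old and of the C57BL/6 J strain, and the mutation was present in every cell of the animal, so that no cell type was targeted.

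In the ovary, forkhead factors are best known from 3 subfamilies. FOXO proteins are held in the cytoplasm when the kinase AKT phosphorylates them, and FOXO3 in the oocyte restrains the activation of resting follicles, whereas FOXO1 is abundant in granulosa cells of growing follicles. FOXL2 maintains the identity of granulosa cells, and FOXM1 drives genes of mitosis in dividing cells. FOXJ1 and FOXN4 take part in the making of multiciliated cells, such as those of the oviduct.

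The targeted gene could not check the labels, since a frameshift allele can still be transcribed: Bnc1 lay between 13.1 and 13.9 CPM (counts per 1000000 counted reads, after TMM scaling of the libraries) in wild-type ovaries and between 11.5 and 18.7 CPM in Bnc1tr/tr ovaries. Markers of the tissue were present, as all 20 oocyte and all 16 granulosa cell markers passed the filter on low counts. Totals ran from 25247770 to 34406296 counts per ovary. A gene at 0 in an ovary could still hold up to 3 counts, which is 0.0906 to 0.115 CPM, and this limit covers counting error only. In wild-type replicate 1 and Bnc1tr/tr replicate 3 the summed markers of oviduct ciliated epithelium stood apart, at 125 and 280 CPM beside 47.9 to 55.3 CPM in the other 4 ovaries. In such whole-organ RNA, fewer cells of a type and less RNA per cell cannot be told apart.

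The forkhead genes of the adult ovary spanned a wide range of levels. Per kilobase of exon, Foxo1 was the highest member in wild-type ovaries at 35.9 ± 4.90 CPM per kb (SD, n = 3), with all 3 ovaries above the 3 ovaries of the next gene, Foxp4, at 24.5 ± 1.47 CPM per kb. Foxp4, Foxs1 at 19.6 ± 3.35 and Foxo4 at 19.1 ± 1.46 CPM per kb followed, with ranges that overlapped from each gene to the next. Foxk2 at 15.8 ± 0.872 and Foxo3 at 14.3 ± 1.07 CPM per kb overlapped each other and lay below Foxo4. Then came Foxk1 at 10.1, Foxj2 at 8.70, Foxm1 at 8.43, Foxn3 at 5.46, Foxp1 at 5.25 and Foxj3 at 4.47 CPM per kb. In this stretch of the order, Foxj2 with Foxm1 and Foxn3 with Foxp1 were neighbours that did not differ beyond their spread. Foxn2 and Foxo6 stood at 2.50 and 2.42 CPM per kb, again overlapping, and Foxf1 and Foxp2 at 1.59 and 1.05 CPM per kb. The lowest genes with at least 1 CPM in wild-type ovaries were Foxa3, Foxr1, Foxc2, Foxc1 and Foxq1, from 0.733 down to 0.312 CPM per kb.

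**Figure D1:**
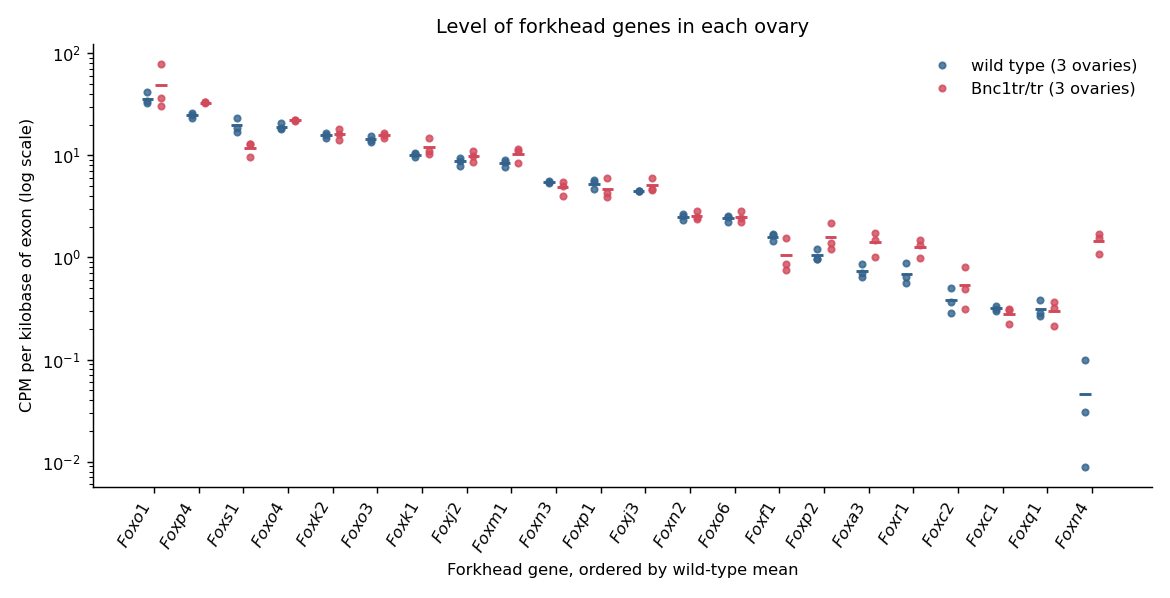
Level of the 22 forkhead genes with a mean of at least 1 CPM in either genotype, in CPM per kilobase of exon on a log axis; each point is 1 ovary and each short line the mean of 3 ovaries. Foxo1 leads the wild-type order, at 35.9 CPM per kb, and Foxn4 stands last in wild-type ovaries but among Foxa3 and Foxr1 in Bnc1tr/tr ovaries.

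Counts of some members may include reads of other genes, since whether the counting used the strand is not given in the sources used here. Foxq1 shares 3200 exon bases with a gene on the opposite strand, A530084C06Rik, and Foxo1 shares 674 exon bases with an antisense gene, Gm20402. Foxp3 shares 590 exon bases with Ccdc22 and 266 with Ppp1r3f on the opposite strand, and 853 with Flicr on its own strand. Its few counts may thus not be its own. Foxn4, Foxp4, Foxs1, Foxr1 and Foxa3 share none. In the genome 4 pairs of members lay within 100 kb of each other: Foxq1 and Foxf2 on chromosome 13, Foxd2 and Foxe3 on chromosome 4, and the chain of Foxf1, Foxc2 and Foxl1 on chromosome 8. Members of these groups did not share a level: Foxf1 was at 3.84 CPM in wild-type ovaries beside 1.05 CPM for Foxc2 and 0.611 CPM for Foxl1, and Foxf2 had at most 2 counts in any ovary beside 29 to 54 counts for Foxq1.

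The other end of the family was silent or nearly so. There were 0 counts in all 6 ovaries for 7 members, among them Foxa1, Foxb1, Foxb2, Foxd4, Foxi1 and Foxi2, factors known mostly from endoderm, kidney and the developing embryo. Another 5, Foxd1, Foxe1, Foxe3, Foxf2 and Foxh1, had at most 3 counts in every ovary. The remaining members that were not fitted were Foxa2, Foxd3, Foxi3, Foxn1, Foxp3 and Foxr2. Foxp3, the factor of regulatory T cells, had 3, 7 and 7 counts in wild-type and 3, 7 and 6 counts in Bnc1tr/tr ovaries, which is the same range. Foxd3 had 0, 2 and 2 counts in wild-type and 6, 8 and 6 counts in Bnc1tr/tr ovaries, and Foxi3 had 0, 0 and 1 against 6, 3 and 3. Both genes were higher in every Bnc1tr/tr ovary than in any wild-type ovary, at levels too low for a fold change. Foxn1 and Foxr2 stayed at or under 4 counts in every ovary.

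Between the genotypes, 2 members were past the threshold of edgeR's quasi-likelihood test as higher in Bnc1tr/tr ovaries, Foxn4 and Foxp4, which is 8.33% of the 24 fitted. Over all 19423 genes 2.88% were called higher, and nothing is read from the difference because this contrast helped to choose the family. A single member, Foxs1, was past the threshold as lower, 4.17% of those fitted, beside 4.19% of all genes. Without regard to the test, 6 members had all 3 Bnc1tr/tr ovaries above all 3 wild-type ovaries, namely Foxa3, Foxj3, Foxn4, Foxo4, Foxp4 and Foxr1, which is 25% of those fitted beside 15.0% of all genes. In the opposite direction Foxs1 was again the single member, 4.17% beside 15.8% of all genes. The genotypes overlapped for the other 17. Log2 fold changes (Bnc1tr/tr minus wild type) were positive for 17 and negative for 7 of the 24, with a median of 0.18 beside 0.02 over all genes, of which 52.6% were positive. Without Bnc1tr/tr replicate 1 the median of the members was 0.06, with 15 of 25 positive. Scaling by library size alone gave 18 positive members and moved the called genes from 559 higher and 813 lower to 1112 higher and 616 lower. For 13 members the log2 fold change was under 0.3 in size.

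**Figure D2:**
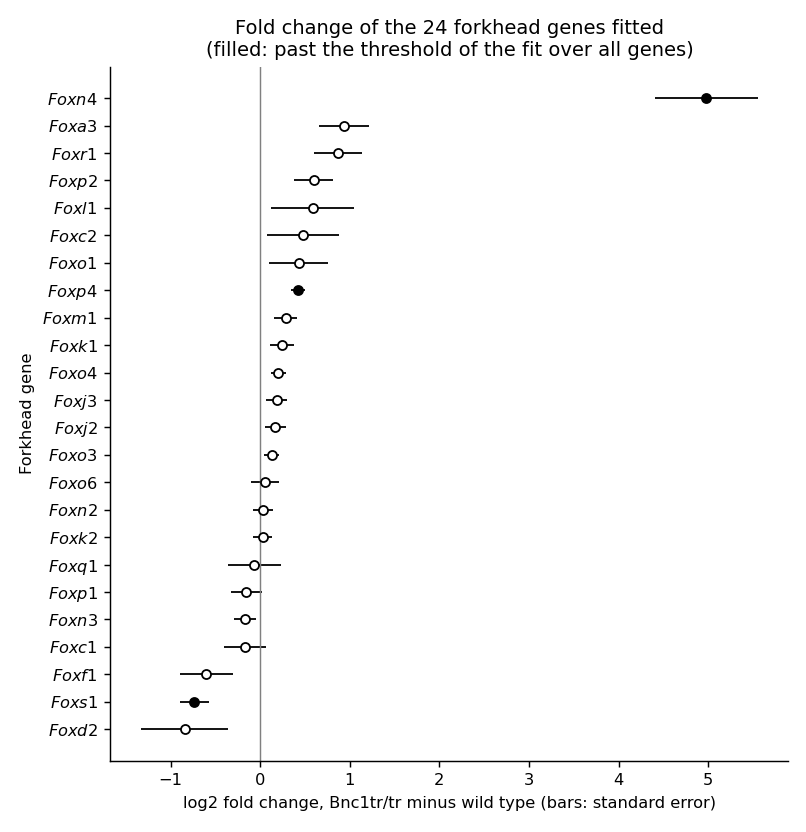
Log2 fold change, Bnc1tr/tr minus wild type, of each of the 24 fitted forkhead genes, with bars for the standard error; filled points are past the threshold of the fit over all 19423 genes. Foxn4 lies far to the right at 4.98, Foxp4 is near at 0.42 with a short bar, Foxs1 is at -0.74, and most of the other members sit close to 0.

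Foxn4 had the largest difference of the 24. FOXN4 is known for specifying interneurons and retinal cells and for acting in multiciliated cells. Wild-type ovaries held 9, 1 and 3 counts of it, or 0.335, 0.0302 and 0.103 CPM, and Bnc1tr/tr ovaries held 159, 95 and 147 counts, or 5.66, 3.66 and 5.18 CPM. Every Bnc1tr/tr ovary was thus more than 10 times above the highest wild-type ovary. Means were 0.156 ± 0.159 and 4.83 ± 1.04 CPM (SD, n = 3), and the fitted log2 fold change was 4.98 with a standard error of 0.57. Summed over ovaries and set against library size, 401 counts against 13 gave a ratio of 33.3. This ratio is a description only, since the family was taken up with the behaviour of Foxn4 known. Foxn4 was also the only fitted member under 10 counts in every wild-type ovary, so that it entered the fit through its counts in Bnc1tr/tr ovaries. Bnc1tr/tr replicates 1 and 2, with 52.7 and 53.2 CPM of summed ciliated markers, held 5.66 and 3.66 CPM of Foxn4. Bnc1tr/tr replicate 3, with 280 CPM of the markers, held 5.18 CPM. Wild-type replicate 1, with 125 CPM of the markers, held 0.335 CPM. The part of ciliated cells in the result was not tested. Without wild-type replicate 1 and Bnc1tr/tr replicate 3, the log2 fold change was 6.07, an alternative chosen after seeing the data.

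Foxn4 lies on chromosome 5 (GRCm38, minus strand, 114254164 to 114273807), and Foxp4 on chromosome 17 (minus strand, 47867133 to 47924645). The promoters of both members called higher are shown because they let a reader see what these genes share, or do not share, at their starts. The sequences are from RefSeq on GRCm38.p6, run 5′ to 3′ on the gene's strand from 250 bases before the start to 50 after it, and have each CG dinucleotide in capitals. The first spans chr5:114273712-114274011 and the second chr17:47924583-47924882. Foxs1 has no entry in the promoter table.
Foxn4: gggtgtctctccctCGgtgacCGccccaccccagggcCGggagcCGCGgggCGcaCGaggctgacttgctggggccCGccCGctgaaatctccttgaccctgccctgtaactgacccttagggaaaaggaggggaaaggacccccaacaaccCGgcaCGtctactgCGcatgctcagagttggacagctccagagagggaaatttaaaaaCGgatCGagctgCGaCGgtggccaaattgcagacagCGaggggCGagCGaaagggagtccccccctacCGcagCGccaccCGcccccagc
Foxp4: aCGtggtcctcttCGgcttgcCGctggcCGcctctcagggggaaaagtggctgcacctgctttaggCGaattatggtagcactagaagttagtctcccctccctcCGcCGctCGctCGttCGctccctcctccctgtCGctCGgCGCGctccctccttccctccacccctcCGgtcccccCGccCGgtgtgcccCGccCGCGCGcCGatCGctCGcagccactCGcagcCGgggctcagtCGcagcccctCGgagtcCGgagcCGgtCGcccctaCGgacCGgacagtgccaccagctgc

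Both stretches were rich in CG. The Foxn4 promoter held 22 CG dinucleotides at 65.3% G + C and the Foxp4 promoter held 33 at 70.3%, whereas the median of 32851 promoters was 7 dinucleotides and 52.7%. At least 22 were found in 23.1% of all promoters and at least 33 in 8.56%. Neither held the forkhead motif GTAAACA, the alternate FOXN motif GACGC or the cell cycle element TTTGAA on either strand, and these letters occurred in 3.65%, 27.2% and 17.9% of all promoters, respectively. None of these motifs contains another, and a missing match says only that the letters are not in this window. Promoter sequences were at hand for 27 of the 42 members, too few to compare groups of members.

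Foxp4, a repressor of the FOXP subfamily, showed the most uniform difference. Its values were 114, 121 and 128 CPM in wild-type and 159, 163 and 164 CPM in Bnc1tr/tr ovaries. The Bnc1tr/tr ovaries, with an SD of 2.67 CPM beside 7.23 CPM in wild type, were all above the wild-type range. The log2 fold change was 0.42 with a standard error of 0.08, a 1.34-fold higher level. Summed corpus luteum markers were lower in the same ovaries, at 7984 to 13824 CPM in Bnc1tr/tr beside 25734 to 31042 CPM in wild type. The part of the cell make-up of the ovary in the level of Foxp4 was not tested. Its subfamily did not move as a block. Foxp2 was at 15.7, 15.8 and 19.9 CPM against 35.2, 22.8 and 19.7 CPM, so that Bnc1tr/tr replicate 1 stood high and replicate 3 lay within the wild-type range. Foxp1 was at 74.5, 63.9 and 78.1 CPM against 82.8, 58.1 and 53.8 CPM, with overlapping genotypes and a log2 fold change of -0.15. The call for Foxp4 held in 7 of 13 alternatives. It was lost without wild-type replicate 1, 4 or 7, without Bnc1tr/tr replicate 2 or 3, and without the 2 ovaries highest in ciliated markers, while the log2 fold change stayed between 0.36 and 0.52 throughout. Over all genes, those called higher numbered 559 in the reported fit and 94 to 620 on leaving out 1 ovary.

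Foxs1 was the member that was lower. FOXS1 is known from the pericytes around vessels and from neural crest derivatives. Wild-type ovaries had 22.4, 24.1 and 30.7 CPM and Bnc1tr/tr ovaries 16.8, 12.6 and 16.9 CPM, without overlap. The log2 fold change was -0.74 with a standard error of 0.16, a 1.67-fold lower level. The endothelial markers were lower in the same ovaries: 6 of 12 passed the test as lower and 0 as higher, with summed levels of 1048 to 1396 CPM in wild-type and 720 to 841 CPM in Bnc1tr/tr ovaries. Pdgfrb, a receptor of pericytes and other stromal cells, fell from 177 ± 28.7 to 113 ± 0.940 CPM (SD, n = 3, adjusted p = 0.0191, edgeR). Most other stromal markers did not share its direction, since 10 of the 12 on the list, with a median log2 fold change of 0.06, and 7 of 8 smooth muscle markers were positive. Per 1000 CPM of endothelial markers, Foxs1 was at 21.3, 20.3 and 22.0 CPM in wild-type and 23.3, 15.0 and 20.9 CPM in Bnc1tr/tr ovaries. On that scale the genotypes overlapped, and replicate 2 was the low Bnc1tr/tr ovary; the part of vessel cells in the result was not tested. The call for Foxs1 was lost on leaving out any of the 6 ovaries, and with library size alone as the scaling, with log2 fold changes of -0.91 to -0.60 over the 13 alternatives. Over all genes, those called lower numbered 813 in the reported fit and 226 to 662 on leaving out 1 ovary.

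**Figure D3:**
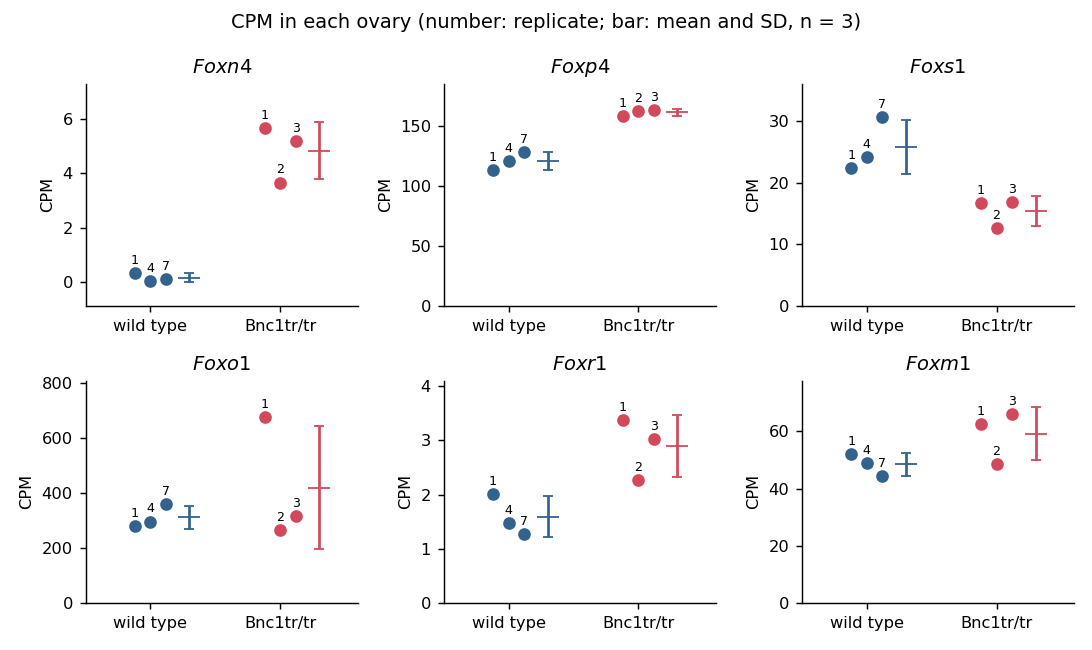
CPM of 6 forkhead genes in each ovary, with the replicate number above each point and a bar for the mean and SD of the 3 ovaries of a genotype. The genotypes are separate for Foxn4, Foxp4, Foxs1 and Foxr1 and overlap for Foxo1 and Foxm1, and Bnc1tr/tr replicate 1 alone holds Foxo1 at 677 CPM.

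The FOXO subfamily held the largest summed level, 493 ± 54.2 CPM in wild-type and 621 ± 223 CPM in Bnc1tr/tr ovaries. The wide spread in the mutants came from Foxo1. Its level was 279, 296 and 359 CPM in wild-type and 677, 264 and 317 CPM in Bnc1tr/tr ovaries. Replicate 1 alone was high, and the other Bnc1tr/tr ovaries sat within or below the wild-type range. The log2 fold change was 0.43 with a standard error of 0.33, and -0.10 without Bnc1tr/tr replicate 1. Foxo1 made up 25.7%, 27.2% and 29.8% of all forkhead CPM in wild-type ovaries and 40.5%, 23.3% and 27.0% in Bnc1tr/tr ovaries. Bnc1tr/tr replicate 1 also had the highest summed granulosa cell markers, 7921 CPM, but replicate 3 had 7245 CPM with 317 CPM of Foxo1. Per 1000 CPM of these markers, Foxo1 was at 50.5 to 77.7 CPM in wild-type ovaries and at 43.8 to 85.4 CPM in Bnc1tr/tr ovaries.

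Foxo3, which keeps resting follicles dormant, was nearly level. It was at 106, 102 and 118 CPM in wild-type and 119, 124 and 113 CPM in Bnc1tr/tr ovaries, with a log2 fold change of 0.13 and a standard error of 0.09. Foxo4 was at 64.8, 62.4 and 72.2 CPM against 76.5, 77.8 and 75.0 CPM, a difference without overlap and with a log2 fold change of 0.20. Foxo6, the least abundant FOXO gene, lay between 5.83 and 6.65 CPM in wild-type and between 5.80 and 7.51 CPM in Bnc1tr/tr ovaries.

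FOXO proteins are controlled mainly by phosphorylation, which RNA counts do not show, so the genes around them were counted too. A list of 36 genes, all fitted, held the PI3K-AKT pathway and other regulators of FOXO, such as Stk4, Mapk8 and Sirt1. They are called PI3K-AKT genes below. Of these 36, 0 passed the test as higher and 1 as lower, with 19 positive. Their median log2 fold change was 0.02, the same as over all genes. With DESeq2, 1 was higher and 2 were lower, while over all genes it called 1080 higher and 1340 lower. In edgeR 9 had an unadjusted p under 0.05. The share of all genes under that unadjusted p is not given here, so nothing is read from such counts in any list. The gene that passed was Sgk1, a kinase related to AKT that phosphorylates FOXO factors. It fell from 447, 502 and 744 CPM to 93.7, 133 and 144 CPM, a log2 fold change of -2.19 with a standard error of 0.23 (adjusted p = 0.00331, edgeR). It passed in all 13 alternatives, with adjusted p values of up to 0.0239. In the same ovaries 12 of 15 corpus luteum markers passed as lower, and their sum was 25734 to 31042 CPM in wild-type and 7984 to 13824 CPM in Bnc1tr/tr ovaries; the part of luteal cells in the fall of Sgk1 was not tested.

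Of 43 genes known as FOXO targets, 40 were fitted, and 0 passed as higher and 2 as lower, with 20 of 40 positive and a median log2 fold change of -0.0022. Cdkn1b, the cell cycle inhibitor p27, fell from 203, 212 and 222 CPM to 91.6, 131 and 105 CPM (log2 fold change -0.96, adjusted p = 0.00714, edgeR). Sod2, the mitochondrial superoxide dismutase, fell from 151, 174 and 113 CPM to 69.0, 70.4 and 72.6 CPM (log2 fold change -1.05, adjusted p = 0.00812, edgeR). Neither gene overlapped between the genotypes. Without wild-type replicate 1 and Bnc1tr/tr replicate 3 both missed the threshold, at adjusted p = 0.0786 and 0.0808, and Cdkn1b also missed it without wild-type replicate 4, at 0.0522. The lower luteal markers given above stand beside both genes, and their part was not tested. DESeq2 called 1 target higher and 6 lower, and 14 had an unadjusted p under 0.05 in edgeR.

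Foxm1 was at 52.2, 49.0 and 44.3 CPM in wild-type and 62.7, 48.7 and 66.1 CPM in Bnc1tr/tr ovaries. Bnc1tr/tr replicate 2 lay within the wild-type range, and the log2 fold change was 0.29 with a standard error of 0.13. Its known targets, genes of mitosis, showed the same arrangement of ovaries: their sum was 1641, 1523 and 1360 CPM in wild-type and 1758, 1514 and 2023 CPM in Bnc1tr/tr ovaries. All 32 targets had a positive log2 fold change, beside 52.6% of all genes. Their median was 0.26 and their range 0.01 to 0.61, yet 0 passed the test in edgeR. Without Bnc1tr/tr replicate 3 the median was 0.13 with 27 of 32 positive, without wild-type replicate 7 it was 0.19 with 29 positive, without Bnc1tr/tr replicate 1 it was 0.28 with 31 positive, and without Bnc1tr/tr replicate 2 it was 0.40. Unadjusted p was under 0.05 for 8, limma-voom called 0 and DESeq2 called 3, all higher. For 5 of the 32 the genotypes did not overlap, beside the 15.0% of all genes given above. Plk1, a mitotic kinase, was at 35.5 ± 3.39 and 50.3 ± 9.45 CPM (SD, n = 3), and Mki67, the Ki-67 antigen, at 74.0 ± 9.31 and 96.7 ± 15.6 CPM, with adjusted p = 0.0861 and 0.141. Per 1000 CPM of target genes Foxm1 was at 31.8 to 32.6 CPM in wild-type and 32.2 to 35.7 CPM in Bnc1tr/tr ovaries. The part of dividing cells in the levels of Foxm1 and of these targets was not tested.

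Genes known to work with FOXN4 or downstream of it came next. Of 25, 15 were fitted, and 3 passed as higher and 1 as lower, with 8 of 15 positive and a median log2 fold change of 0.16. Gata3, which follows FOXN4 in spinal interneurons, rose from 0.520, 1.21 and 0.621 CPM to 3.27, 2.93 and 3.21 CPM (log2 fold change 1.98, adjusted p = 0.0160, edgeR). Its call was lost without wild-type replicate 7, at adjusted p = 0.0761, and without the 2 ovaries highest in ciliated markers, at 0.103. Ccno, which acts in the multiplication of centrioles in multiciliated cells and is also active in oocytes, was at 46.8, 45.2 and 38.2 CPM against 82.3, 53.2 and 79.4 CPM (log2 fold change 0.72, adjusted p = 0.0461, edgeR). Its call held in 6 of 13 alternatives and was lost without wild-type replicate 1, 4 or 7 and without Bnc1tr/tr replicate 1 or 3, at adjusted p from 0.0918 to 0.157 and log2 fold changes from 0.61 to 0.77, and also with limma-voom, at 0.0553, and without the 2 ovaries highest in ciliated markers, at 0.210. Dll4, the Notch ligand that FOXN4 activates in the retina and that sprouting endothelium makes, fell from 30.3, 30.4 and 28.5 CPM to 14.8, 16.5 and 17.3 CPM (log2 fold change -0.88, adjusted p = 0.00372, edgeR). The direction of Dll4 was thus opposite to that of Foxn4, beside the lower endothelial markers, whose part was not tested.

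**Figure D4:**
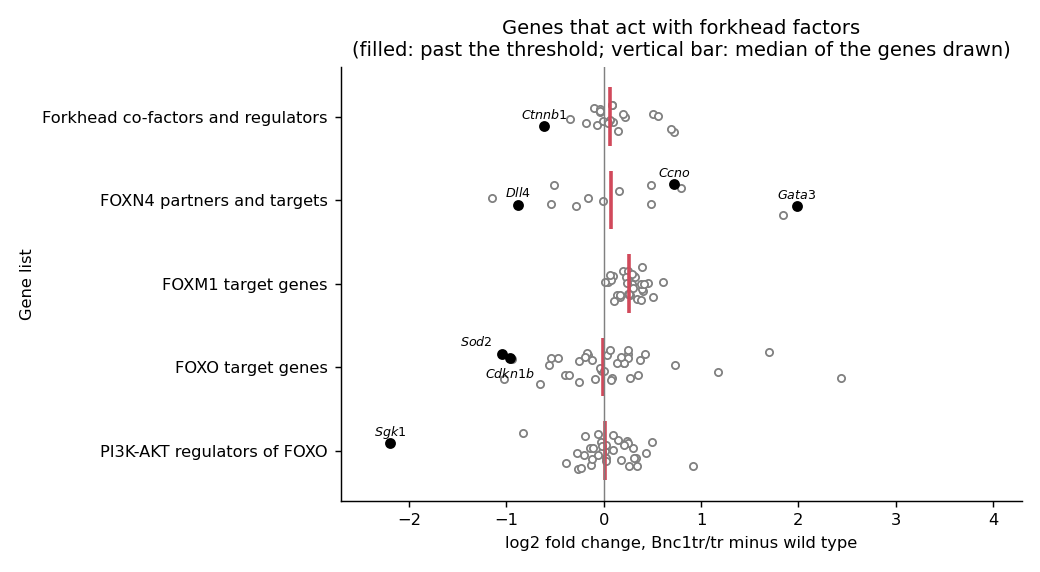
Log2 fold change, Bnc1tr/tr minus wild type, of the fitted genes of 5 lists around the forkhead factors; each point is a gene, filled points passed the test, and vertical bars are medians of the genes drawn, which are those with a log2 fold change of at most 4. The FOXM1 targets all lie at or right of 0 with a median of 0.26, whereas the FOXO targets and the PI3K-AKT genes spread to both sides around medians near 0.

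Among 21 co-factors and regulators of forkhead proteins, 0 passed as higher and 1 as lower, with 12 positive and a median log2 fold change of 0.06. Ctnnb1, the beta-catenin that binds FOXO proteins, fell from 1074, 1078 and 950 CPM to 600, 688 and 743 CPM (log2 fold change -0.61, adjusted p = 0.0192, edgeR). Its call was lost without wild-type replicate 1 or 4, at adjusted p = 0.0603 and 0.101, and without the 2 ovaries highest in ciliated markers, at 0.120. The lower luteal markers stand beside this gene too, and their part was not tested. DESeq2 called 4 higher and 1 lower, and 7 had an unadjusted p under 0.05 in edgeR.

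Foxr1 and Foxa3 were low genes with higher levels in all Bnc1tr/tr ovaries that were not past the threshold. FOXR1 is known from germ cells. Foxr1 was at 2.01, 1.48 and 1.28 CPM in wild-type and 3.38, 2.27 and 3.03 CPM in Bnc1tr/tr ovaries, with a log2 fold change of 0.87 and a standard error of 0.27. The summed oocyte markers had the same order of ovaries except for wild-type replicate 1 and Bnc1tr/tr replicate 2, at 1210, 1134 and 941 CPM against 1824, 1188 and 1769 CPM, and 7 of 20 passed as higher. Per 1000 CPM of oocyte markers, Foxr1 was at 1.66, 1.31 and 1.36 CPM in wild-type and 1.85, 1.91 and 1.71 CPM in Bnc1tr/tr ovaries, without overlap. The part of oocytes in the result was not tested. Foxa3, a factor of liver and gut, was at 1.75, 1.42 and 1.31 CPM against 3.52, 3.0 and 2.04 CPM, with a log2 fold change of 0.94 and a standard error of 0.28. Of the 13 alternatives, the DESeq2 test called it.

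Foxa2, known from endoderm and from uterine glands, was distributed unlike Foxa3. It had 13, 6 and 2 counts in wild-type and 4, 2 and 56 counts in Bnc1tr/tr ovaries, and a single ovary, Bnc1tr/tr replicate 3, held most of the reads. That ovary was also the highest in summed ciliated markers, in summed secretory epithelium markers (857 CPM, beside 264 to 394 CPM in the other 5) and in Foxj1, at 37.1 CPM. Wild-type replicate 1 was next for the ciliated markers, for the secretory markers and for Foxj1, at 7.88 CPM, and for Foxa2. The other 4 ovaries had at most 6 counts of Foxa2 and 0.345 to 1.45 CPM of Foxj1. The genotype contrast of Foxa2 was not fitted. Among the 26 fitted ciliated markers, which include Foxj1, 1 passed as higher, Tekt2, and 25 were positive, and of the 17 fitted secretory markers 5 passed as higher.

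**Figure D5:**
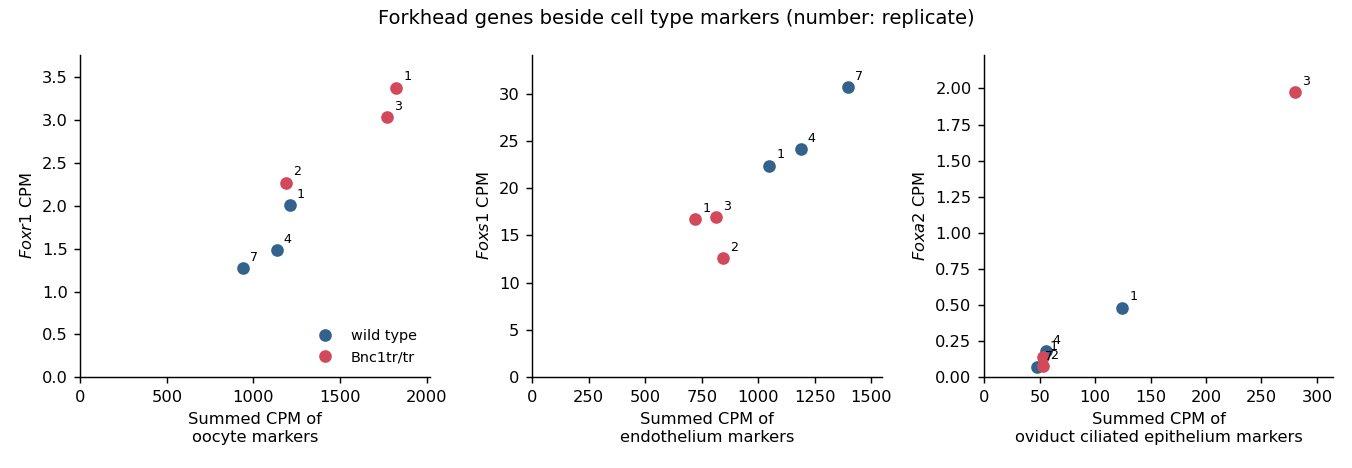
CPM of Foxr1, Foxs1 and Foxa2 in each ovary against the summed CPM of markers of oocytes, endothelium and oviduct ciliated epithelium, with the replicate number beside each point. Foxr1 is ordered much as the oocyte markers are across ovaries. Foxs1 and the endothelial markers are both lower in Bnc1tr/tr ovaries, of which replicate 2 is highest in the markers but lowest in Foxs1. Foxa2 is high in Bnc1tr/tr replicate 3 and next in wild-type replicate 1, the 2 ovaries highest in ciliated markers.

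The abundant members of other subfamilies differed little. Foxk1, a regulator of metabolism and autophagy, was at 79.1, 73.2 and 77.6 CPM in wild-type and 111, 83.9 and 77.5 CPM in Bnc1tr/tr ovaries, and its relative Foxk2 was at 82.8, 87.5 and 78.3 CPM against 94.6, 73.4 and 85.6 CPM. Foxj2 was at 42.3, 46.5 and 50.7 CPM against 58.5, 52.8 and 45.6 CPM. Foxj3 was at 49.3, 49.3 and 48.7 CPM against 66.2, 50.1 and 51.1 CPM. Foxj3 is the case where the lack of overlap rested on a narrow wild-type group, with an SD of 0.308 CPM. The log2 fold changes of these 4 were between 0.03 and 0.25. Foxn3, a checkpoint factor, was at 62.7, 61.0 and 64.6 CPM against 63.7, 58.2 and 46.0 CPM, and Foxn2 at 18.6, 19.8 and 16.9 CPM against 20.8, 18.3 and 17.6 CPM. The summed FOXN subfamily overlapped between the genotypes, at 81.4 ± 0.502 CPM in wild-type and 79.7 ± 10.7 CPM in Bnc1tr/tr ovaries (SD, n = 3), since Foxn3 and Foxn2 made up most of it.

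The mesenchymal factors were low and varied between ovaries. Foxf1 was at 3.49, 3.96 and 4.07 CPM in wild-type and 3.70, 1.81 and 2.08 CPM in Bnc1tr/tr ovaries, where replicates 2 and 3 lay below the wild-type range and replicate 1 within it. Its chromosomal neighbour Foxc2 was at 0.781, 0.997 and 1.38 CPM against 2.21, 1.35 and 0.846 CPM, and Foxl1 at 0.372, 0.876 and 0.586 CPM against 1.49, 0.654 and 0.634 CPM. Both were highest in Bnc1tr/tr replicate 1, as were Foxo1, Foxp2, Foxk1 and Foxj3. Foxc1 was at 1.97, 1.81 and 1.76 CPM against 1.32, 1.77 and 1.83 CPM, and Foxq1 at 1.38, 1.30 and 1.86 CPM against 1.78, 1.54 and 1.02 CPM. Foxd2, the least counted of the fitted members in Bnc1tr/tr ovaries, had 13, 9 and 26 counts against 10, 7 and 8, with a log2 fold change of -0.84 and a standard error of 0.48. Summed over all 42 members, forkhead RNA was at 1127 ± 69.4 CPM in wild-type and 1327 ± 301 CPM in Bnc1tr/tr ovaries, with replicate 1 at 1673 CPM and the other Bnc1tr/tr ovaries at 1132 and 1175 CPM.

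Foxl2, left out of the family by the rule, was at 148, 165 and 141 CPM in wild-type and 112, 124 and 134 CPM in Bnc1tr/tr ovaries, without overlap and with a log2 fold change of -0.29. The granulosa cell marker list, which includes Foxl2 itself, was split in direction: 2 of 16 passed as higher, 0 as lower and 8 were positive.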

How the data were processed

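Total RNA of whole ovaries was extracted with TRIzol, and single-end libraries were read on an Ion Proton. The deposited table holds raw counts, whole numbers of reads for each gene in each ovary, which the authors had not normalized. The aligner, counter and annotation are not given in the sources used here, and the submitters' processing notes list the builds mm10 and Sscrofa10.2, without roles. Genes at low counts were removed with filterByExpr (minimum count 10, edgeR 4.0.16, R 4.3.3), and 19423 of 44788 genes were compared after TMM normalization with glmQLFit and glmQLFTest, two-sided, with Benjamini-Hochberg adjustment over all of them and a threshold of 0.05. The procedure was tested on simulated data. Fold changes are from this fit. The study's methods state that littermates were compared, but no label assigns an ovary to a litter, so litter was not modelled. The p values set the genotype difference against the spread between these 3 and 3 mice, which includes any spread between litters. Exon lengths, positions and overlaps came from GENCODE M21 on GRCm38.

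The forkhead members, the gene lists and the marker lists were chosen with earlier results of these data known. The lists were written from general knowledge. Members with a mean of at least 1 CPM in either genotype, or past the threshold, were given per ovary, and of each list around the forkhead factors up to 3 genes per direction past the threshold with a mean of at least 1 CPM were named. Alternatives were DESeq2 size factors, library size only, no filter, at least 10 counts in every ovary, DESeq2 1.42.0, limma-voom (limma 3.58.1) and leaving out each ovary. Leaving out the 2 ovaries, 1 per genotype, highest in ciliated markers was chosen after seeing the data. Values of some genes are not reported here.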

Additional observations from a re-analysis of the deposited data

How the results depend on the processing

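Of 310 log2 fold changes of members under the 13 alternatives, 17 differed from the reported value by more than its standard error, 8 of them without Bnc1tr/tr replicate 1. Signs changed for Foxk2, Foxn2 and Foxo6 (2 alternatives each), for Foxq1 (4) and, on leaving out Bnc1tr/tr replicate 1, for Foxo1 (to -0.10). Library size alone moved the median of all genes from 0.02 to 0.12 and that of the members from 0.18 to 0.28, with 18 of 24 positive. Foxn4 had log2 fold changes of 4.44 to 6.12 in the 12 alternatives that kept it, which is no independent support since its difference was known when the family was chosen, and a filter of 10 counts in every ovary removed it.

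Members called higher numbered 3 with DESeq2, 1 with that filter and 1 without the 2 ovaries highest in ciliated markers, and 1 to 2 on leaving out 1 ovary. Members called lower numbered 0 with library size only, 0 without the 2 ovaries, and 0 on leaving out any 1 ovary. Calls over all genes moved too, from 559 higher and 813 lower in the reported fit. On leaving out 1 ovary they were 94 to 620 higher and 226 to 662 lower. Without the 2 ovaries they were 72 higher and 232 lower, so a lost call is not particular to a gene named here. PI3K-AKT genes called higher numbered 1 with library size only, with no filter and with DESeq2, and 0 to 1 on leaving out 1 ovary, and those lower numbered 2 with DESeq2. FOXO targets called higher numbered 2 with library size only, 1 with DESeq2 and 0 to 1 on leaving out 1 ovary. FOXO targets called lower numbered 4 with no filter, 6 with DESeq2, 0 without the 2 ovaries and 1 to 3 on leaving out 1 ovary. FOXM1 targets called higher numbered 3 with library size only, 1 with no filter, 3 with DESeq2 and 0 to 3 on leaving out 1 ovary. FOXN4 partners called higher numbered 5 with library size only, 5 with DESeq2, 4 with no filter and 2 with limma-voom. They numbered 2 with at least 10 counts in every ovary, 1 without the 2 ovaries and 1 to 3 on leaving out 1 ovary. FOXN4 partners called lower numbered 2 with no filter, 2 with DESeq2 and 1 to 2 on leaving out 1 ovary. Co-factors called higher numbered 1 with library size only, 4 with DESeq2 and 0 to 1 on leaving out 1 ovary, and those lower 0 without the 2 ovaries and 0 to 1 on leaving out 1 ovary. The cause of these shifts was not tested. No paired analysis was possible because the genotypes share only replicate number 1 and no label gives the litters.

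With 3 ovaries per genotype, no member with a log2 fold change under 0.3 in size passed the threshold, and 18 members had too few counts to be fitted.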

Other observations

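Of the other marker lists, smooth muscle and T cell genes had 0 of 8 and 0 of 8 fitted genes past the threshold in edgeR, with 1 and 1 at an unadjusted p under 0.05, DESeq2 calling 1 and 0 and limma-voom 0 and 0. Stromal genes had 1 of 12 higher and 1 lower, theca and steroidogenic stroma 1 of 8 higher, surface epithelium 1 of 11 higher, and neural genes 1 of 8 higher and 1 lower. The T cell markers, which bear on Foxp3, summed to 18.8 to 26.3 CPM in wild-type and 16.6 to 19.8 CPM in Bnc1tr/tr ovaries.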
